A study of Homo sapiens with 5 samples.

Results

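The genes described here are 36 parts of the NF-kB pathway: 5 subunits of the transcription factor, its inhibitors and their kinases, and a set of its known target genes. They were chosen by symbol from the platform annotation. Of the 36, 34 have a probe set that names them alone, among 12165 such genes on the array, and TRAF2 and BIRC3 are not analysed here. RNA came from LNCaP cells, a line of human prostate cancer that responds to androgen, grown in serum-containing medium, after 6 h with 1.25 µM celastrol (2 arrays) or with the solvent DMSO alone (3 arrays). Celastrol is a triterpenoid from thunder god vine. By their titles all arrays are biological replicates of LNCaP, and the labels name no genetic change. The profile of DMSO replicate 3 does not look like LNCaP, as described below. Each gene is represented by its brightest probe set over celastrol replicates 1 and 2 and DMSO replicates 1 and 2. Levels are given as log2(intensity + 1). Each change is the celastrol mean minus the DMSO mean of these values, and is too small for dim genes because of the floor. A gene with a mean below 5 over these 4 arrays is called near the floor.

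NF-kB is a family of dimeric transcription factors that most cells hold in the cytoplasm, bound by inhibitor proteins of the IkB type. Receptors for tumour necrosis factor, interleukin-1 and microbial products activate the IkB kinases, the inhibitor is degraded, and the dimers enter the nucleus to switch on genes of inflammation and survival. Several of these targets, NFKBIA and TNFAIP3 among them, encode proteins that shut the pathway off again. Celastrol has been studied as an inhibitor of NF-kB activation, and the comparison asks whether transcripts of the pathway differ between celastrol and its solvent.

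The array labelled DMSO replicate 3 is shown apart, because its profile does not look like LNCaP. Across probe sets it correlated with the other 4 at 0.843 to 0.844, while those correlated with one another at 0.994 to 0.998. All 10 measured luminal markers of the prostate were more than 2-fold below the mean of DMSO replicates 1 and 2 on this array, and their summed intensity was 265.9 there against 15154.1 to 16298.6 on the other 4 arrays. Of 12 leukocyte markers that were measured, 8 were more than 2-fold above that mean. The remaining markers, CD3E, CD2, CD14 and CD68, were not, at 4.25, 4.89, 4.12 and 4.35 on this array. The summed intensity of all 12 was 20753.5 there against 240.9 to 244.9 on the other 4 arrays. The B cell genes MS4A1 and CD79A stood at 10.91 and 8.63 on it, and KLK3 and FOLH1, which encode prostate-specific antigen and prostate-specific membrane antigen, at 4.56 and 4.43. None of 10 fibroblast and endothelial markers moved over 2-fold on it. In RNA of a whole culture, fewer cells of a type and less RNA per cell cannot be told apart. Whether this array carries RNA of another sample was not tested. Unless said otherwise, comparisons below use celastrol replicates 1 and 2 and DMSO replicates 1 and 2. On these 4 arrays all 12 leukocyte markers were near the floor.

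The NF-kB consensus, a motif of 10 letters that starts with GGG and ends with CC, was searched on both strands of the 250 bases before the start of each gene in RefSeq's promoter table (GRCh38.p14). The table holds 30 of the 36 genes. A match was found in 13 of these 30 promoters (43.3%), against 11.5% of the promoters of all genes on the array and 9.57% of all 27305 promoters. Matches in a window are letters and not measured binding. Promoters of 4 genes that the results below turn on are printed here 5′ to 3′ on the gene's strand, with matches in capitals. NFKBIA was lower with celastrol and holds a match. TNFAIP3 and CXCL1 hold matches and were near the floor on the 4 arrays, and SOD2 was lower with celastrol and holds no match in this window. The windows are chr14:35404750-35404999 (minus strand) for NFKBIA, chr6:137867009-137867258 (plus strand) for TNFAIP3, chr4:73869143-73869392 (plus strand) for CXCL1 and chr6:159727385-159727634 (minus strand) for SOD2.
NFKBIA: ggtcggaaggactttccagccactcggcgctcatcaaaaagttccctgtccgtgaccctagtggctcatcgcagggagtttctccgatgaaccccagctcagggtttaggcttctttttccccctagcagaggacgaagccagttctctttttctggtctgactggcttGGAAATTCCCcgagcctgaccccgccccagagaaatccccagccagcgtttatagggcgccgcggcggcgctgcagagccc
TNFAIP3: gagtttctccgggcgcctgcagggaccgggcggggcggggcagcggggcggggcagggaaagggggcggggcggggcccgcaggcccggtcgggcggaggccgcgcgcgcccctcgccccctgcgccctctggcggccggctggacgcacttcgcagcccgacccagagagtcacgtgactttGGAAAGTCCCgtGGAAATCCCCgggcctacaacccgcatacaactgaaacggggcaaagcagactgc
CXCL1: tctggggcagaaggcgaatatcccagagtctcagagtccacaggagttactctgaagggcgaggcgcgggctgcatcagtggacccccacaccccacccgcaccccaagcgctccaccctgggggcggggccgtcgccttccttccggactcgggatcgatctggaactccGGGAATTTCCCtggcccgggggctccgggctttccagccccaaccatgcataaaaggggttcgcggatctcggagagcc
SOD2: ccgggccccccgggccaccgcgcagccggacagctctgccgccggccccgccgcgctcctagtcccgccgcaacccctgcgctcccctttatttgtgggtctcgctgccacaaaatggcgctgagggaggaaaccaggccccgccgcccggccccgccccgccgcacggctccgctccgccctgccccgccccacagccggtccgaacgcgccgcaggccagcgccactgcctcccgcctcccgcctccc

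The match of NFKBIA begins 81 bases before the start, and those of TNFAIP3 begin 67 and 55 bases before it. The run of capitals in CXCL1 is a pair of overlapping matches, 1 on each strand, that begin 79 and 78 bases before the start. CXCL2 and CXCL3 hold the same overlapping pair, beginning 78 and 79 bases before the start. NFKB1, REL, CCL20, IL6, LTB and IRF1 also hold a match that begins between 46 and 86 bases before the start, and the matches of GADD45B and BIRC3 begin between 15 and 199 bases before it. A match was found for 2 of 10 genes with a mean level of 5 or more (NFKB1 and NFKBIA) and for 10 of 18 near the floor.

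No gene of the pathway passed the test between celastrol and DMSO, and 4 were lower with groups that did not overlap. These were NFKBIA, which encodes the inhibitor IkB-alpha, SOD2, which encodes mitochondrial superoxide dismutase, TNIP1, which encodes a binding partner of the deubiquitinase made from TNFAIP3, and CCND1, which encodes cyclin D1. Their changes were -0.46, -0.40, -0.30 and -0.26. The 5 genes that were higher without overlap were IKBKB, at 0.11, and the near-floor genes IER3 at 0.12, TNF at 0.09, CCL20 at 0.07 and LTB at 0.03. The other 25 overlapped, counting tied values as overlap.

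By limma's test, with p-values adjusted by Benjamini-Hochberg across the whole array, 0 of 34 genes had an adjusted p under 0.05, where 0.0164% of all genes did. The smallest adjusted p was 0.114, that of NFKBIA. At an unadjusted limma p under 0.05 there were 2 lower genes, NFKBIA and SOD2, and 2 higher ones, CCL20 and IER3, where 8.8% and 6.3% of all genes passed in these directions. The shares of the 34 were 5.88% in each. Without overlap, 11.8% of the 34 genes were lower and 14.7% higher, against 19.4% and 15% of all genes. Of the 12 genes with a mean of 5 or more, 4 were lower and 1 higher, 33.3% and 8.33%, against 29.3% and 17.4% of all genes of that level. None of these shares stands far above that of all genes. The median change of the 12 was -0.0045, against -0.03 for the 6698 genes of that level, and the other 22 had changes between -0.16 and 0.15. With 2 arrays a group, an exact two-sided permutation test of 1 gene cannot go below p = 0.333.

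**Figure D1:**
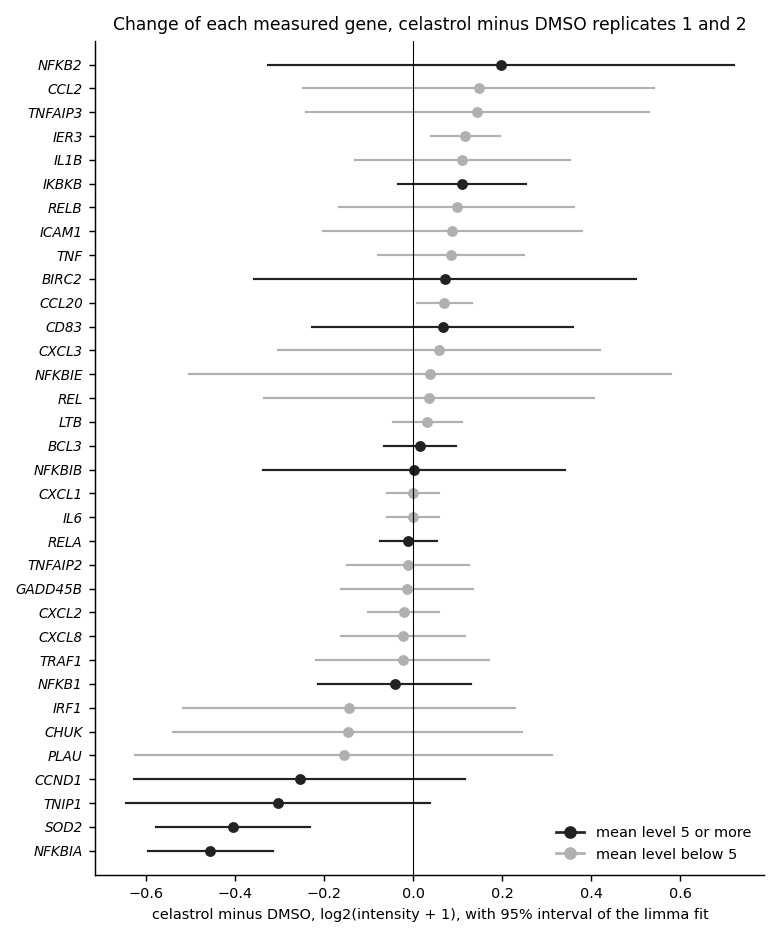
Change of each of the 34 measured genes (x axis: celastrol minus DMSO replicates 1 and 2 in log2(intensity + 1), 2 arrays a group, with the 95% interval of the limma fit), ordered by size from the top. NFKBIA at -0.46 and SOD2 at -0.40 stand lowest, and 22 genes in grey have mean levels below 5.

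Among the inhibitors, NFKBIA differed most. It stood at 9.04 and 9.13 on the celastrol arrays, against 9.53 and 9.56 on DMSO replicates 1 and 2, and at 10.88 on DMSO replicate 3. Both celastrol arrays were thus below DMSO replicates 1 and 2. The level on DMSO replicate 3 does not bear on celastrol, because the profile of that array does not look like LNCaP. The means were 9.09 ± 0.0657 with celastrol and 9.54 ± 0.0185 with DMSO (SD, n = 2 each), a 1.37-fold lower level with celastrol. The change of -0.46 had an SE of 0.0437 and a 95% interval from -0.60 to -0.32, and did not pass limma's test (adjusted p = 0.114). Under 14 alternatives that keep to the 4 arrays it ran from -0.50 to -0.41, with the smallest limma adjusted p at 0.0571. On all 5 arrays it was -0.90.

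The other inhibitors differed less. NFKBIB, which encodes IkB-beta, stood at 5.25 and 5.07 with celastrol and at 5.25 and 5.07 with DMSO, with a change of 0.00 and a 95% interval from -0.34 to 0.34. BCL3, an atypical nuclear member of the IkB family, stood at 5.25 and 5.24 with celastrol and at 5.21 and 5.25 with DMSO. Its 95% interval ran from -0.07 to 0.10, at a level where the floor makes changes too small. NFKBIE, which encodes IkB-epsilon, was near the floor, at 4.72 and 4.31 with celastrol against 4.46 and 4.49 with DMSO. Its celastrol arrays lay on either side of the DMSO arrays. The difference between NFKBIA and these genes was not tested.

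Of the kinases that mark the inhibitors for degradation, IKBKB stood at 7.36 and 7.27 with celastrol, against 7.22 and 7.18 with DMSO, a change of 0.11 with an SE of 0.0448. The groups did not overlap, but the change did not pass (limma adjusted p = 0.508). Another probe set of IKBKB with a mean above 5 overlapped between groups and had a change of -0.0048. The remaining one, just below 5, also overlapped and had a change of 0.26. CHUK, the partner kinase, was just below 5, at 4.93 and 4.64 with celastrol against 4.93 on both DMSO arrays.

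The subunits overlapped between groups. NFKB1, which encodes a precursor that is processed to a DNA-binding subunit, stood at 8.35 and 8.47 with celastrol, against 8.43 and 8.47 with DMSO. RELA, the main activating subunit, stood at 7.15 on both celastrol arrays, against 7.15 and 7.17 with DMSO. The 95% intervals of these changes ran from -0.21 to 0.13 and from -0.07 to 0.05. A second probe set of RELA disagreed with the first. It stood at 7.01 on both celastrol arrays against 6.85 and 6.80 with DMSO, a change of 0.18 (SE 0.029, limma adjusted p = 0.182) with no overlap.

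NFKB2, the precursor of the non-canonical branch, stood at 5.97 on both celastrol arrays and on DMSO replicate 2, and at 5.57 on DMSO replicate 1. Its change of 0.20 was the largest on the higher side of the 34 genes, and it rests on that 1 DMSO array: without it the change was 0.00. REL was just below 5, at 5.05 and 4.90 with celastrol against 4.82 and 5.05 with DMSO. RELB was near the floor, at 4.29 on both celastrol arrays against 4.29 and 4.09 with DMSO.

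**Figure D2:**
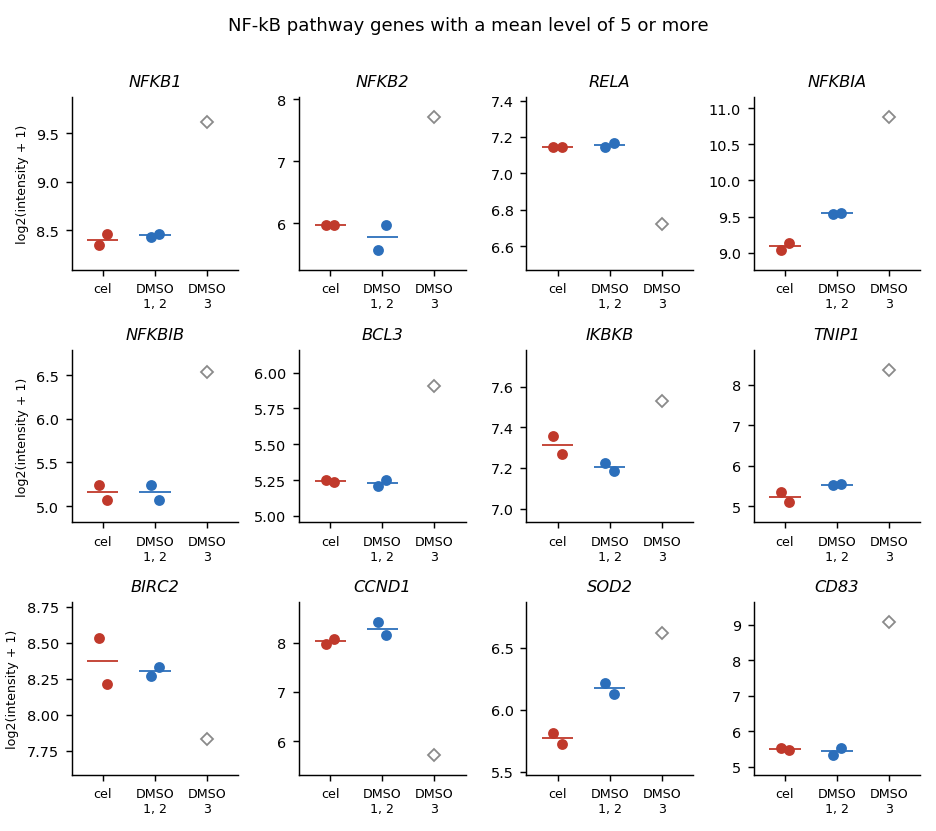
Levels in log2(intensity + 1) of the 12 genes with a mean of 5 or more, with a y axis range of its own for each gene, for the celastrol arrays (cel, red), DMSO replicates 1 and 2 (blue) and DMSO replicate 3 (open diamond). Points are arrays and lines are group means. NFKBIA, SOD2, TNIP1 and CCND1 have both celastrol arrays below both blue DMSO points.

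Genes that dampen or relay the signal were mostly dim. TNIP1 stood at 5.35 and 5.10 with celastrol, against 5.52 and 5.55 with DMSO. The means were 5.23 ± 0.179 and 5.53 ± 0.0204 (SD, n = 2 each), and the change of -0.30 (SE 0.106) did not pass (limma adjusted p = 0.429). Celastrol replicate 2 was the lowest array, and with 1 array left out the change ran from -0.43 to -0.18. TNFAIP3, which encodes a ubiquitin-editing enzyme that ends NF-kB signalling, was near the floor at 4.99 on both celastrol arrays, against 4.70 and 4.99 with DMSO. Its second probe set, at 4.44 and 4.60 with celastrol against 4.32 and 4.22 with DMSO, was near the floor as well.

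BIRC2, an inhibitor of apoptosis and ubiquitin ligase of receptor complexes, was the brighter gene of this group, at 8.53 and 8.21 with celastrol against 8.27 and 8.33 with DMSO. The celastrol arrays lay on either side of the DMSO arrays. The adaptor TRAF1 stood at 4.54 and 4.67 with celastrol against 4.65 and 4.61 with DMSO, and TNFAIP2 between 4.23 and 4.30 on the 4 arrays.

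None of the 10 chemokine and cytokine genes was above the floor. Over these genes and the 4 arrays levels ran from 3.82 to 4.76, and changes from -0.02 to 0.15. The neutrophil-attracting chemokines CXCL1, CXCL2 and CXCL3 had changes of 0.00, -0.02 and 0.06. CXCL1 and IL6, the gene of the cytokine interleukin-6, had identical values on all 4 arrays, 4.06 and 4.05. CCL2, which attracts monocytes, stood at 4.68 and 4.39 with celastrol and at 4.39 on both DMSO arrays. At such levels neither the presence of a transcript nor a fall below it could be measured.

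The remaining cytokines were as dim. CCL20, a chemokine for lymphocytes and dendritic cells, stood at 4.13 on both celastrol arrays, against 4.05 and 4.06 with DMSO, a step of 0.07 that did not pass (limma adjusted p = 0.321). TNF stood at 3.91 and 3.98 with celastrol against 3.91 and 3.82 with DMSO, LTB between 4.17 and 4.23, and IL1B between 4.54 and 4.76 on the 4 arrays. For CXCL8, which encodes interleukin-8, the annotation gives 9 probe sets, all near the floor on the 4 arrays. The brightest stood at 4.57 on both celastrol arrays against 4.64 and 4.54 with DMSO. The one whose accession is a RefSeq transcript of CXCL8 stood at 4.35 and 4.47 with celastrol and at 4.35 on both DMSO arrays. Others of the 9 read 9.48 and 7.01 on DMSO replicate 3, where the RefSeq one read 4.35, so the 9 differ from one another there. The annotation of these others may be wrong, and whether they measure CXCL8 was not tested.

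Of the other targets, SOD2 stood at 5.81 and 5.72 with celastrol, against 6.22 and 6.13 with DMSO. The means were 5.77 ± 0.0603 with celastrol and 6.17 ± 0.0628 with DMSO (SD, n = 2 each), a 1.32-fold lower level with celastrol. The change of -0.40 had an SE of 0.0538 and a 95% interval from -0.58 to -0.23, and did not pass (limma adjusted p = 0.156). Its other probe sets were near the floor, with changes of 0.10 and -0.01, so the difference rests on 1 probe set. DMSO replicate 3 stood at 6.62, and on all 5 arrays the change was -0.55.

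CCND1, a driver of entry into S phase that also answers to other pathways, stood at 7.98 and 8.07 with celastrol, against 8.41 and 8.15 with DMSO. The change was -0.26 (SE 0.116, limma adjusted p = 0.562). A second probe set stood at 7.02 and 7.25 with celastrol, against 7.42 and 7.40 with DMSO, a change of -0.27, also with no overlap and also not passing (limma adjusted p = 0.444). On all 5 arrays the sign turned to 0.60, since DMSO replicate 3 held CCND1 at 5.73.

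CD83, a surface marker of activated antigen-presenting cells, stood at 5.54 and 5.47 with celastrol against 5.33 and 5.54 with DMSO, and overlapped. ICAM1, an adhesion molecule, stood between 4.59 and 4.80 on the 4 arrays, and GADD45B, a stress-induced signalling protein, between 4.85 and 4.94. IER3, an immediate early gene, stood at 3.94 on both celastrol arrays against 3.81 and 3.85 with DMSO. The change of 0.12 is at the floor and did not pass (limma adjusted p = 0.238). IRF1, a transcription factor of interferon responses, and PLAU, which encodes urokinase, had changes of -0.14 and -0.16, with overlap.

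Most of the pathway was near the floor on these arrays. A mean below 5 was found for 22 of the 34 genes (64.7%), against 44.9% of all genes. The members nearest to it were REL at 4.96, TNFAIP3 at 4.91, GADD45B at 4.90 and CHUK at 4.86 on the dim side, and NFKBIB at 5.16 and BCL3 at 5.23 on the other. Equal values on at least 2 of the 4 arrays were found for 21 of the 34 genes, against 6831 of all 12165.

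On DMSO replicate 3, the array without the luminal markers, the same genes looked different. Of the 34, 17 were over 2-fold higher there than on the mean of DMSO replicates 1 and 2 (50%, against 8.29% of all genes). Just 1 was over 2-fold lower (2.94%, against 12%), but the 22 genes near the floor had little room to fall. Of the 12 genes with a mean of 5 or more, 50% were over 2-fold higher and 8.33% over 2-fold lower. Among all genes of that level the shares were 8.05% and 21.8%. These are values of 1 array with no test, and they stand beside 8 of 12 leukocyte markers that were also higher on it. The part of cell type in them was not tested.

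TNFAIP3 differed most, at 9.87 on DMSO replicate 3, against 4.70 and 4.99 on DMSO replicates 1 and 2. Its second probe set, at 8.73 there against 4.32 and 4.22, did the same. TRAF1 stood at 9.09 against 4.65 and 4.61, LTB at 8.50 against 4.17 and 4.21, CD83 at 9.08 against 5.33 and 5.54, and REL at 8.48 against 4.82 and 5.05. TNIP1, ICAM1, GADD45B and IER3 stood at 8.37, 7.97, 7.15 and 7.10 on this array. Among subunits, NFKB1 at 9.62, NFKB2 at 7.71, REL and RELB at 5.94 were over 2-fold higher there, while RELA was at 6.72 against 7.15 and 7.17.

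Not all targets shared this. CXCL1, CXCL2, CXCL3, CCL2, CCL20 and IL6 stood between 3.95 and 4.30 on DMSO replicate 3, near the floor there too. The promoters of CXCL1 and TNFAIP3 printed above both hold matches, and of the pair TNFAIP3 alone read high on this array. A match was found for 7 of 14 genes over 2-fold higher on it and for 5 of 14 others, counting those measured and in the promoter table. CCND1 was the 1 gene over 2-fold lower.

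**Figure D3:**
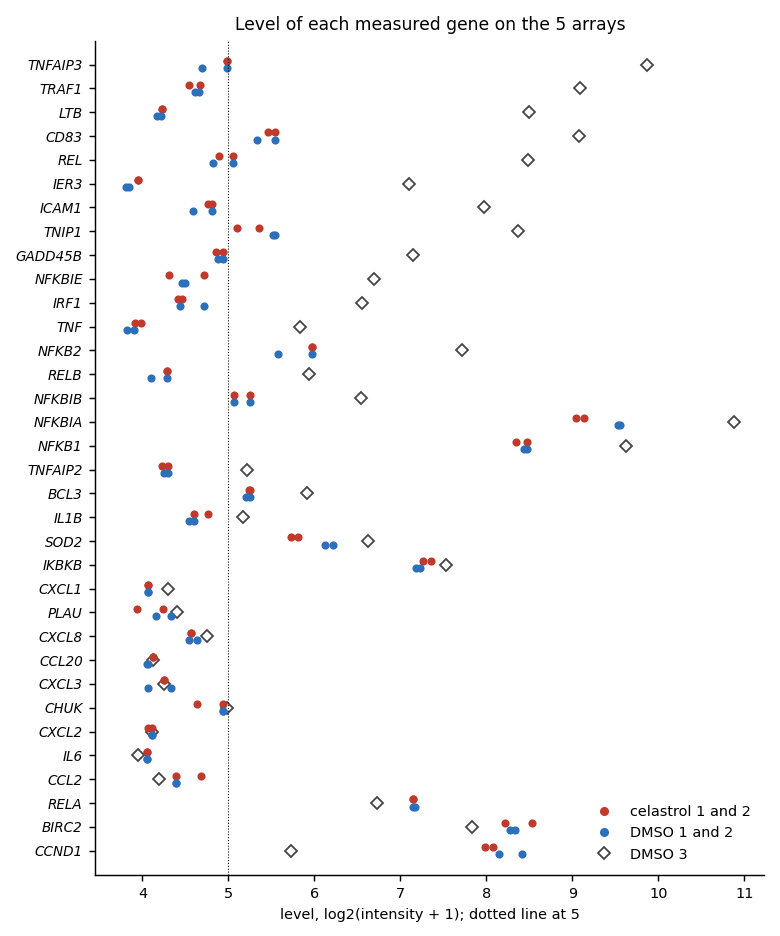
Levels in log2(intensity + 1) of the 34 genes on the 5 arrays, ordered from the top by the excess of DMSO replicate 3 over the mean of DMSO replicates 1 and 2. On DMSO replicate 3 (open diamond) TNFAIP3 reads 9.87 and CCND1 5.73, while most of the other 4 arrays' points lie left of the dotted line at 5.

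Genes upstream of NF-kB were read from a list of 51 receptors, adaptors, ubiquitin enzymes and coactivators, of which 48 were measured. None passed the limma test (adjusted p under 0.05), while 3 were lower and 8 higher at an unadjusted limma p under 0.05. These are 6.25% and 16.7% of the list, against 8.8% and 6.3% of all genes. Without overlap 9 were lower and 15 higher, 18.8% and 31.2% of the list, against 19.4% and 15% of all genes. Of the 33 with a mean of 5 or more, 21.2% were lower and 45.5% higher, against 29.3% and 17.4% of all genes of that level. These counts carry no test, and the list was chosen with earlier results of these data known. The excess on the higher side therefore cannot be read as a result about upstream genes. Named here are the 3 genes of smallest p in each direction among those with a mean of 5 or more. TNFRSF21, a death-domain receptor, stood at 8.43 and 8.31 with celastrol, against 7.12 and 7.24 with DMSO, a 2.28-fold higher level (change 1.19, SE 0.0709, limma adjusted p = 0.0853). It passed in 4 of the other fits, with limma adjusted p from 0.022 to 0.0481. These were the fits without the 40% dimmest probe sets and without means below 5, where 1.04% and 2.48% of genes were called, and those after quantile normalization and median centring, where 1.03% and 0.756% were called.

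TNFRSF1A, the main receptor for tumour necrosis factor, stood at 8.12 and 7.94 with celastrol, against 7.34 and 7.30 with DMSO. The change was 0.71 (SE 0.0766, limma adjusted p = 0.132), with no overlap. TNFRSF10B, a death receptor for the ligand TRAIL, stood at 8.56 and 8.53 with celastrol, against 8.32 and 8.27 with DMSO, a change of 0.25 (limma adjusted p = 0.147). On the lower side IRAK1, a kinase that relays interleukin-1 and Toll-like receptor signals, stood at 9.63 and 9.57 with celastrol, against 9.79 and 9.87 with DMSO. The adaptor gene MYD88 stood at 8.17 and 8.33 with celastrol against 8.49 and 8.50 with DMSO, and the receptor gene IL1R1 at 6.95 and 6.83 with celastrol against 7.03 and 7.09 with DMSO. Their changes were -0.23, -0.24 and -0.17, and none passed (limma adjusted p = 0.242, 0.327 and 0.421). Lower at an unadjusted limma p under 0.05 were IRAK1, MYD88 and TNFRSF11A, but not IL1R1. TNFRSF11A, a receptor of the tumour necrosis factor family near the floor, had a change of -0.26.

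A second list held 45 further targets of NF-kB, of which 41 were measured. None passed the limma test, and at an unadjusted limma p under 0.05 there were 4 lower and 3 higher. These are 9.76% and 7.32% of the list, close to the 8.8% and 6.3% of all genes. Without overlap 11 were lower and 6 higher, 26.8% and 14.6%, against 19.4% and 15% of all genes. Of the 18 with a mean of 5 or more, 5 were lower and 6 higher, 27.8% and 33.3%. Among all genes of that level the shares were 29.3% and 17.4%. This list too was chosen with earlier results of these data known, and its counts carry no test. SDC4, a heparan sulfate proteoglycan of the cell surface, stood at 6.27 and 6.15 with celastrol, against 6.89 and 6.88 with DMSO, a change of -0.67 (SE 0.0562, limma adjusted p = 0.103). The survival gene BCL2L1 had a change of -0.21 and MYC of -0.13. Lower at an unadjusted limma p under 0.05 were SDC4, BCL2L1, CXCL10 and IL15, but not MYC. CXCL10 and IL15 were near the floor, with changes of -0.08 and -0.10. On the higher side BHLHE40, a transcriptional repressor, stood at 5.62 and 5.65 with celastrol, against 5.19 and 5.24 with DMSO, a change of 0.42 (limma adjusted p = 0.0981). VEGFA, an angiogenic growth factor gene that many stresses induce, and JUNB had changes of 0.64 and 0.24. SDC4 and BHLHE40 passed in the fit restricted to probe sets with a mean of 5 or more, with adjusted p = 0.0454 and 0.0483. The list thus held values on both sides, as the 34 genes did.

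**Figure D4:**
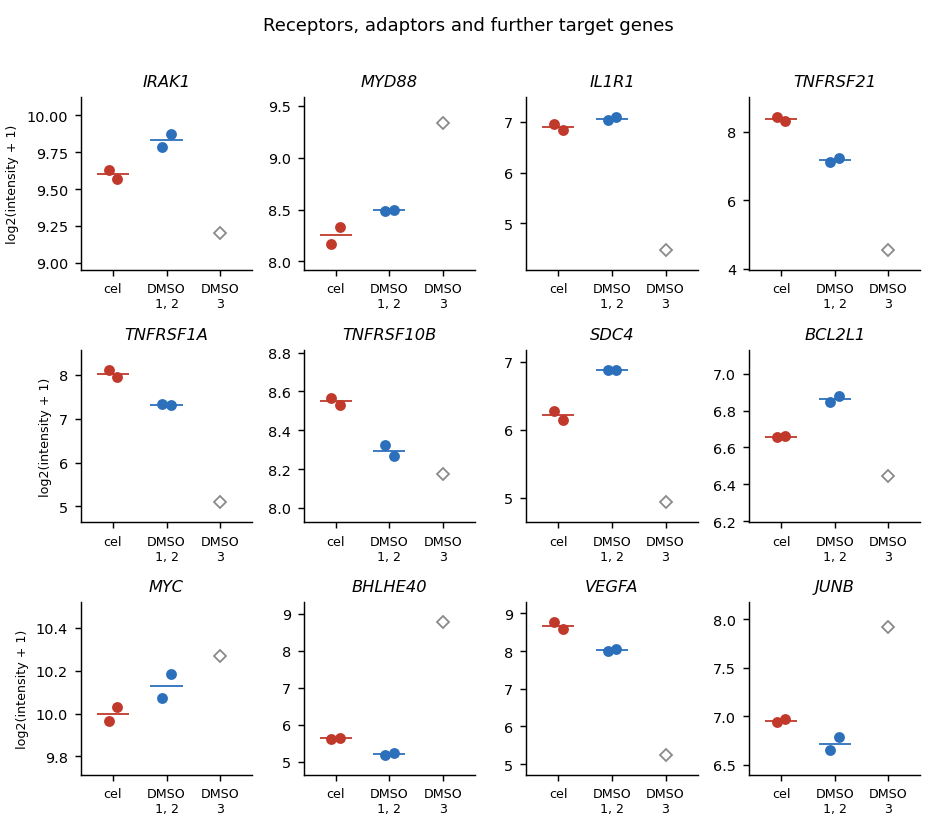
Levels in log2(intensity + 1) of 12 further pathway genes, the 3 of smallest p in each direction in each list among genes with a mean of 5 or more, with a y axis range of its own for each gene, for the celastrol arrays (cel, red), DMSO replicates 1 and 2 (blue) and DMSO replicate 3 (open diamond). Points are arrays and lines are group means. TNFRSF21 shows the widest gap between celastrol at 8.43 and 8.31 and DMSO at 7.12 and 7.24.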

How the data were processed

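Total RNA isolated with Trizol was labelled as biotinylated cRNA for Affymetrix arrays, per the labels' protocols. The authors deposited intensity values for each probe set, which are linear and not log. Their summary by RMA is stated in the submitters' processing notes, without a version. Samples were grouped by title, since the description of the DMSO samples speaks of celastrol. Of 22215 probe sets, 19724 name 1 gene, 568 several and 1923 none in the platform annotation, and Entrez look-up changed 0 symbols.

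The deposited values were used as log2(value + 1) and not normalized again. Limma (version 3.58.1, R 4.3.3; lmFit and eBayes, two-sided) was fitted to all probe sets of celastrol replicates 1 and 2 and DMSO replicates 1 and 2, with Benjamini-Hochberg adjustment over all of them and a threshold of 0.05. The fit was also run on simulated data, with changes placed in brighter probe sets alone and with noise that gives no tied values. That run does not bear on how well changes of dim genes or genes with ties would be found. The members, lists, the choice of 4 arrays and the threshold of 5 were set with earlier results of these data known. All 34 measured members are named. Of the other lists, the 3 genes with the smallest p a direction and a mean of 5 or more are named. With 2 arrays a group, precision is limited by their number. RMA values were identical between pairs of the 4 arrays for 17.1% to 19.3% of probe sets, and 643 probe sets had no variance within either group. The titles do not say whether arrays of the same replicate number form pairs. The differences between replicates 1 and 2 of the 2 treatments correlated at r = -0.0197 over probe sets. The differences of single probe sets thus had almost no linear relation between the treatments. A shift of equal size in all probe sets would leave r as it is, so a shared shift of that kind was not tested. Whether the arrays form pairs was not tested. There were 15 alternatives, in filters, arrays, scaling, pseudocount, variance model, replicate block, arrays left out and probe set per gene.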

Additional observations from a re-analysis of the deposited data

Results flagged for a closer look

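The array labelled DMSO replicate 3 is outside the comparison, and 17 of the 34 genes read over 2-fold higher on it than on the mean of DMSO replicates 1 and 2. The excess on the log2 scale was 5.03 for TNFAIP3, 4.46 for TRAF1, 4.30 for LTB, 3.64 for CD83, 3.54 for REL, 3.27 for IER3, 3.27 for ICAM1 and 2.84 for TNIP1. It was 2.24 for GADD45B, 2.22 for NFKBIE, 1.97 for IRF1, 1.97 for TNF, 1.94 for NFKB2, 1.75 for RELB, 1.39 for NFKBIB, 1.33 for NFKBIA and 1.17 for NFKB1. They include 4 of 5 subunits, 3 of the 6 inhibitor and kinase genes and 3 of the 5 measured feedback and adaptor genes. By their brightest probe sets, none of the CXCL chemokines is among them. Other probe sets that the annotation gives to CXCL8 read 9.48 and 7.01 on this array, while the RefSeq one read 4.35. Whether those others measure CXCL8 was not tested, so they do not show a high level of it. RELA and BIRC2 were lower on this array, and BCL3 and TNFAIP2 were under 2-fold higher. This is 1 array with no replicate, and leukocyte markers were higher on it as well.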

How the results depend on the processing

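The 34 genes had 0 calls in the planned fit and in each of the 13 other limma fits run, while calls among all genes ran from 0 to 166. NFKBIA, SOD2, TNIP1 and CCND1 kept their direction in all 14 alternatives without DMSO replicate 3, but most of these could not turn it. The filters, variance models and replicate block leave the change itself as it was. A gene without overlap also keeps its sign when 1 array is left out. SOD2 shrank to -0.0056 with the median over its probe sets, and CCND1 alone of these genes turned on all 5 arrays. The number lower without overlap was 4, but 8 after quantile normalization, and 5 to 10 with 1 array left out. The number higher without overlap was 5, but 1 when the 40% dimmest probe sets or those with means below 5 were left out, where fewer genes remained, 0 on all 5 arrays, 14 after median centring, which breaks ties, 8 with the median over a gene's probe sets, and 6 to 12 with 1 array left out. With 1 array in a group, fewer values have to lie apart. The share of all genes without overlap was not computed under these alternatives. The shifts in these counts therefore cannot be read as a result about the 34 genes. The median change of the 12 brighter genes was -0.0045, but -0.44 on all 5 arrays and 0.026 after quantile normalization, and -0.049 to 0.0052 with 1 array left out. Other pathway genes called were 0, but 1 without the 40% dimmest, 3 without means below 5, and 1 each after quantile normalization and median centring. Except where said, the cause was not tested. With the replicate block 0 members were called and NFKBIA had adjusted p = 0.351. The dimness of 22 genes limits what could be seen of them.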
